A study of Bos taurus with 6 samples.

Results

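The Hedgehog pathway was followed through 9 of its genes, taken by symbol from the deposited tables: the ligands IHH and DHH, the receptor PTCH1, the signal transducer SMO, the inhibitors HHIP and SUFU, and the transcription factors GLI1, GLI2 and GLI3. These are 9 of 34733 named genes, each listed once. The RNA was from bovine (Bos taurus) luteal-phase endometrium, the inner lining of the womb, in 3 libraries of side population (SP) cells and 3 of main population (MP) cells. Per the labels' protocols, healthy uteri were collected at slaughterhouses, the luminal epithelium was removed, and collagenase-released stromal cells were sorted on Hoechst dye with dead cells gated out. SP cells export the dye and MP cells keep it. The groups share tissue, cycle phase, RNA kit and library kit and differ, by label, in the sorted population. The labels name no animals, so p-values measure the spread between these libraries, which may be technical.

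In Hedgehog signalling a secreted ligand binds Patched on the receiving cell, Patched stops holding back Smoothened, and Smoothened frees GLI factors from SUFU to act on target genes. GLI1, PTCH1 and HHIP are themselves targets, so their transcripts are commonly read as a gauge of the pathway. In the uterus of rodents and humans, progesterone induces IHH in the epithelium, and the stroma beneath carries PTCH1, SMO and the GLI factors.

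SMO and GLI1 fell in SP, with a mean of 1.48 FPKM against 10.8 FPKM for SMO and of 0.286 FPKM against 2.65 FPKM for GLI1. FPKM divides fragment counts by transcript length and library size, so levels of different genes can be set side by side. GLI2, GLI3 and HHIP were likewise below their MP values in every SP library, but at levels under the limit for the test. GLI1 reached the test only through its MP values, so the direction of its call was fixed in advance. IHH, DHH, PTCH1 and SUFU overlapped between the populations.

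The test was limma on log2(FPKM + 1), adjusted by Benjamini-Hochberg and read at 0.05, and it took the 12127 genes that reached 1 FPKM in 3 or more libraries. Of the 9 genes 4 were tested, IHH, PTCH1, SMO and GLI1. SMO and GLI1 were called lower in SP, as were 18.7% of all genes tested, and none was called higher, against 20.5% of all genes. Of all calls 52.3% were higher in SP, and 68.0% once every library was rescaled to the same sum of FPKM, which moved the median log2 difference of all genes from 0.01 to 0.19. SMO and GLI1 were called lower under both scalings. All 3 SP values of GLI1 lay under 1 FPKM, so this gene entered the test only because all MP values lay above it, and its direction was fixed in advance. With no filter on low values, where 20810 genes were fitted, SMO, GLI1, GLI2 and HHIP were called lower and none higher, and 9.95% of all genes were called lower. The same 4 were called with a pseudocount of 0.1 and no filter, an alternative chosen after seeing that 5 of the 9 had missed the filter, and there 10.8% of all genes were called lower. In 5 of the 9, SMO, GLI1, GLI2, GLI3 and HHIP, every SP value lay below every MP value, which held for 20.5% of genes above 0 in any library.

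**Figure D1:**
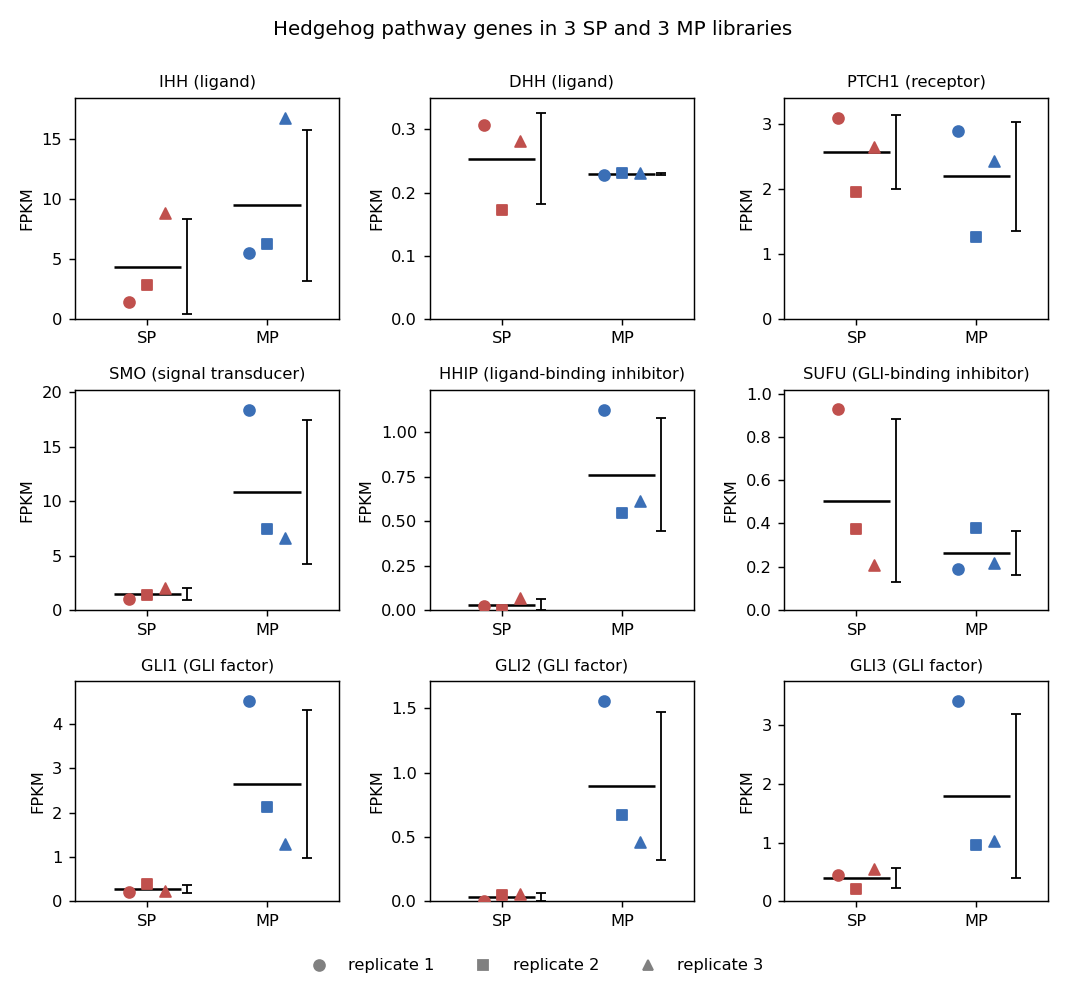
Each panel plots the FPKM of 1 Hedgehog gene on a linear axis from 0, with 1 point per library, a line at the mean and a bar for 1 SD to either side, cut at 0. For SMO, HHIP and the 3 GLI genes all SP points lie below all MP points and MP replicate 1 is the highest, while the points of IHH, DHH, PTCH1 and SUFU overlap.

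Of the ligands, IHH alone exceeded 1 FPKM, and did so in all 6 libraries. IHH (Indian hedgehog, chromosome 2, 107001062 to 107006924, build ARS-UCD1.2) measured 1.39, 2.83 and 8.81 FPKM in SP, in the order of replicates 1 to 3 that all value lists follow, against 5.45, 6.22 and 16.7 FPKM in MP. SP replicate 3 lay above 2 of the MP libraries, so the populations overlapped. The log2 difference, SP minus MP, was −1.07 ± 0.58 (SE, n = 3 each), with a 95% interval from −2.41 to 0.27 and a limma adjusted p of 0.172. Markers of epithelium, the known source of IHH in the uterus, were detected in every library, and the summed FPKM of 9 of them ran from 190 to 1814 in SP and from 1013 to 4699 in MP. None of these 9 passed the test. The highest were CLDN4, a tight junction protein, at 62.3 to 675 FPKM in SP against 542 to 2523 FPKM in MP, and EPCAM, an adhesion protein, at 30.3 to 432 FPKM in SP against 56.6 to 609 FPKM in MP. IHH did not rank with that sum. Per 1000 FPKM of epithelial markers it came to 7.30, 1.56 and 8.95 FPKM in SP and 5.38, 1.32 and 13.5 FPKM in MP, lowest in the libraries numbered 2, which held the most epithelial marker RNA. This ratio did not differ between SP and MP beyond the spread (exact two-sided permutation p = 1).

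DHH (Desert hedgehog, the ligand known from Schwann and Sertoli cells, chromosome 5, 30727666 to 30737473) was low throughout. Its values were 0.308, 0.173 and 0.281 FPKM in SP and 0.227, 0.230 and 0.230 FPKM in MP. The MP values lay inside the SP range, and the exact two-sided permutation p was 0.7, where 3 against 3 libraries cannot go below 0.1. The summed FPKM of 6 Schwann cell markers was 50.1 to 76.0 in SP and 53.7 to 104.7 in MP, most of it S100B, and SOX10, which defines the lineage, was at 0 to 0.252 FPKM in SP and 0.374 to 1.02 FPKM in MP. Of the 6 markers 3 were tested, and 2 were called lower in SP and 0 higher, beside 18.7% lower and 20.5% higher of all genes. The filter fixed the direction of 1 of these calls. The receptor NGFR was called lower, though in only 8 of 23 alternatives. The ligand SHH (Sonic hedgehog) was at 0.0845 and 0.0212 FPKM in SP replicates 1 and 2 and listed at 0 in the other 4 libraries. An exact 0 in these tables can be a failed estimate.

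PTCH1, the receptor that binds the ligands and restrains SMO (chromosome 8, 82098139 to 82168938), was at 3.10, 1.96 and 2.66 FPKM in SP and at 2.90, 1.26 and 2.43 FPKM in MP. The lowest and the highest values of the series lay in different populations and the ranges overlapped. The log2 difference was 0.18 ± 0.27 (SE, n = 3 each; limma adjusted p = 0.61), and its 95% interval from −0.45 to 0.82 leaves room for a change of either sign. Without MP replicate 2, the lowest, it was −0.05.

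SMO, the transducer that PTCH1 holds back (chromosome 4, 93108630 to 93132945), was at 1.01, 1.38 and 2.06 FPKM in SP and at 18.4, 7.44 and 6.66 FPKM in MP. The highest SP value was below the lowest MP value, and MP replicate 1 stood far above the other two. SMO fell in SP by 2.14 ± 0.39 on the log2 scale (SE, n = 3 each), with a 95% interval from −3.03 to −1.25 and a limma adjusted p of 0.0064. Among the 9 genes it was the 1 that passed with values above 1 FPKM in all 6 libraries. The call held without each library in turn (limma adjusted p from 0.00631 to 0.0269). It was lost without the libraries numbered 2 of both populations (0.0613) and, with no filter, without SP replicates 1, 2 or 3 (0.0793, 0.0673 and 0.0556). The mean was 7.30 times as high in MP, 10.8 ± 6.57 FPKM (SD, n = 3), as in SP, 1.48 ± 0.534 FPKM (SD, n = 3), and 4.75 times without MP replicate 1.

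Neither of the inhibitors HHIP and SUFU passed the filter. HHIP, a membrane protein that traps Hedgehog ligands (chromosome 17, 13448750 to 13558329), was at 0.0243, 0 and 0.0669 FPKM in SP and at 1.12, 0.545 and 0.613 FPKM in MP. It was next to undetected in SP and measurable in all MP libraries. After scaling by depth the value of SP replicate 3 was 5.01 times that of SP replicate 1, close to a whole number, so these values may rest on a few fragments. With no filter its log2 difference was −0.76 ± 0.13 (SE, n = 3 each; limma adjusted p = 0.0187), and −2.69 ± 0.42 with the smaller pseudocount (limma adjusted p = 0.011), which shows how far log2(FPKM + 1) shrinks changes at this level. The no-filter call was lost without SP replicates 1, 2 or 3 (limma adjusted p = 0.0718, 0.0638 and 0.0574). SUFU, which holds GLI proteins in the cytoplasm (chromosome 26, 23107772 to 23247245), was at 0.931, 0.376 and 0.210 FPKM in SP and at 0.187, 0.377 and 0.219 FPKM in MP. SP replicate 1 was high and the rest overlapped (exact two-sided permutation p = 0.5). With no filter the interval of its log2 difference ran from −0.21 to 0.67 (limma adjusted p = 0.427).

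The GLI factors carry the signal to DNA: GLI1 acts as an activator, GLI2 mainly as an activator and GLI3 mainly, in its cleaved form, as a repressor. GLI1 was at 0.222, 0.390 and 0.244 FPKM in SP and at 4.52, 2.12 and 1.30 FPKM in MP. The lowest MP value was more than 3 times the highest SP value. The log2 difference was −1.41 ± 0.32 (SE, n = 3 each; limma adjusted p = 0.0137), or −2.68 ± 0.54 with the smaller pseudocount and no filter (limma adjusted p = 0.0207). The call held without each SP library in turn (limma adjusted p from 0.0359 to 0.0466), in a direction the filter had fixed. GLI1 missed the filter when an MP library was left out. With no filter the call was lost without SP replicates 1, 2 or 3 (0.117, 0.0902 and 0.101) and MP replicate 2 (0.076). The files give GLI1 the locus chromosome 5, 55956303 to 56003151, and the same locus to DDIT3, MARS and ARHGAP9. DDIT3 was higher in SP, at 59.2 to 68.7 FPKM against 22.2 to 44.5 FPKM in MP, opposite to GLI1. Whether fragments were split correctly among these genes cannot be read from the files.

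GLI2 (chromosome 2, 72561679 to 72753989) was listed at 0 in SP replicate 1 and at 0.0525 and 0.0537 FPKM in SP replicates 2 and 3, against 1.55, 0.672 and 0.465 FPKM in MP. Every MP value was several times the highest SP value. Its log2 difference with no filter was −0.83 ± 0.21 (SE, n = 3 each; limma adjusted p = 0.0412), and this call was lost without SP replicates 1, 2 or 3 or MP replicate 2 (limma adjusted p from 0.0753 to 0.126). GLI3 (chromosome 4, 78728112 to 79065262) was at 0.444, 0.208 and 0.552 FPKM in SP and at 3.42, 0.962 and 1.03 FPKM in MP. The populations did not overlap, but the lowest MP value was less than 2 times the highest SP value. Its log2 difference with no filter, −0.90 ± 0.34 (SE, n = 3 each), did not pass (limma adjusted p = 0.119). The locus of GLI3 is also given to LOC100848995, at 0 to 0.0358 FPKM in SP and 0.115 to 0.171 FPKM in MP. Whether fragments were split correctly between them cannot be told either. No test compared GLI3 with GLI1 or GLI2 across populations beyond the ratio given below.

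**Figure D2:**
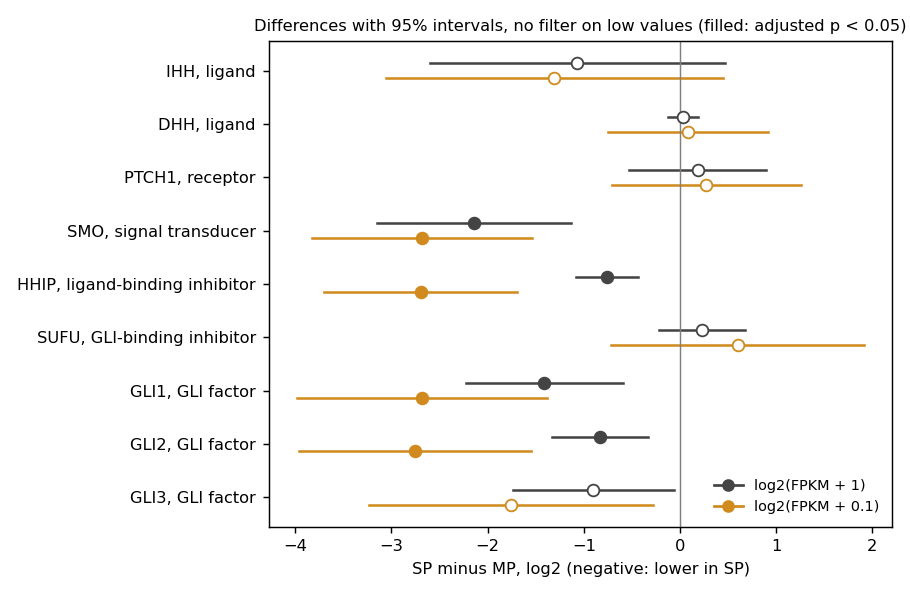
SP minus MP on the log2 scale for the 9 genes, each with its 95% interval from limma with no filter on low values, for pseudocounts of 1 (grey) and 0.1 (orange). Filled points passed an adjusted p of 0.05: SMO, HHIP, GLI1 and GLI2 at both pseudocounts, all lower in SP.

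The genes also changed places in the order of levels. In SP the order by mean was IHH (4.34 FPKM), PTCH1 (2.57), SMO (1.48), SUFU (0.505), GLI3 (0.401), GLI1 (0.286), DHH (0.254), GLI2 (0.0354) and HHIP (0.0304). Only 2 gaps between neighbours in that order were free of overlap, SMO over SUFU and DHH over GLI2. In MP it was SMO (10.8 FPKM), IHH (9.46), GLI1 (2.65), PTCH1 (2.20), GLI3 (1.80), GLI2 (0.897), HHIP (0.761), SUFU (0.261) and DHH (0.229). Here IHH lay clear of GLI1, and HHIP of SUFU. SMO, GLI1, GLI2, GLI3 and HHIP were each highest in MP replicate 1, and so was the stromal fibroblast signal described below.

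Ratios within a library do not depend on scaling between libraries, and 16 of them were computed after the values had been seen. FPKM of GLI1 per FPKM of PTCH1 was 0.0717, 0.199 and 0.092 in SP and 1.56, 1.68 and 0.535 in MP. SMO per PTCH1 was 0.326, 0.701 and 0.777 in SP and 6.36, 5.88 and 2.74 in MP. In both ratios the populations did not overlap, and the exact two-sided permutation p was 0.1, the smallest that 3 against 3 allows (0.16 adjusted over the 16). Per length, GLI1 RNA exceeded PTCH1 RNA in MP replicates 1 and 2 but not in MP replicate 3, and SMO exceeded it in all 3, whereas in SP PTCH1 exceeded both in every library. GLI3 per GLI1 was 2.00, 0.532 and 2.26 in SP and 0.756, 0.453 and 0.793 in MP, which overlapped (exact permutation p = 0.3).

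Cell type markers differed too, fibroblast markers along with SMO and GLI1 and endothelial markers the other way. The counts below stand beside 18.7% lower and 20.5% higher of all genes tested. Of 10 stromal fibroblast markers 8, among them the matrix genes DPT and DCN, were called lower in SP and none higher, 1 of the 8 (DPT) in a direction fixed by the filter, and their summed FPKM was 291 to 488 in SP and 2902 to 11101 in MP, with DCN at 39.7% to 75.6% of it. Of 10 pericyte and smooth muscle markers 9 were tested and 5, among them the contractile genes ACTA2 and DES, were called lower (337 to 537 FPKM in SP, 1189 to 1969 FPKM in MP). Of 12 endothelial markers 11, among them CDH5 and EMCN, were called higher in SP (1413 to 2150 FPKM against 135 to 820 FPKM). With no filter 5 of the 12, CDH5 and EMCN among them, were called higher, beside 8.82% of all genes. Of 11 leukocyte markers 10 were tested and 8, among them C1QB and AIF1, were called lower (31.9 to 68.4 FPKM against 406 to 675 FPKM), 4 of them in a direction fixed by the filter. Most of the SP sum was CD68 (15.7 to 34.3 FPKM) and KIT (13.5 to 32.3 FPKM), the 2 tested markers not called. KIT had the higher mean in SP, 21.9 against 12.2 FPKM. Every other leukocyte marker was at or below 2.02 FPKM in SP. Of the 6 erythroid markers, HBB and SLC4A1 were listed at 0 in all libraries and the sum, mostly the globin gene HBQ1, was 0.994 to 2.25 FPKM. Both sorted populations thus held markers of several cell types. Fibroblast markers, which define the labelled stromal origin, were detected in both but summed to more than endothelial markers in MP alone. In bulk RNA fewer cells of a type and less RNA per cell cannot be told apart.

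Set against the fibroblast signal of the same library, the Hedgehog genes parted. GLI1 per 1000 FPKM of fibroblast markers was 0.639, 1.34 and 0.501 FPKM in SP and 0.407, 0.421 and 0.448 FPKM in MP. On this base it was lowest in MP, the reverse of its level. It was nearly equal among the 3 MP libraries, whose GLI1 levels differed more than 3-fold. DCN alone made up 40.6%, 43.1% and 39.7% of the base in SP and 55.9%, 75.6% and 56.3% in MP. Ratios on a base without DCN were not computed, so the order and the near equality are given for this sum only. SMO per 1000 was 2.91, 4.72 and 4.23 FPKM in SP and 1.66, 1.47 and 2.29 FPKM in MP. GLI3 per 1000 was 0.713 to 1.28 FPKM in SP and 0.191 to 0.355 FPKM in MP, and PTCH1 per 1000 was 5.44 to 8.92 FPKM in SP and 0.251 to 0.838 FPKM in MP. With DCN in the base, these 4 ratios were higher in every SP library than in any MP library (exact two-sided permutation p = 0.1, adjusted 0.16). Whether they stay apart without DCN was not tested. The direction for PTCH1 depended on the base: per 1000 FPKM of endothelial markers it was 1.22 to 1.88 FPKM in SP and 2.97 to 21.5 FPKM in MP, lower in every SP library (exact two-sided permutation p = 0.1, adjusted 0.16). GLI2 and HHIP per 1000 overlapped, at 0 to 0.18 FPKM and 0 to 0.137 FPKM in SP and 0.133 to 0.16 FPKM and 0.101 to 0.211 FPKM in MP. The fibroblast receptor PDGFRA was also taken alone as the base. It was at 0.545, 0.546 and 1.56 FPKM in SP and at 24.0, 18.2 and 8.18 FPKM in MP. SMO per PDGFRA was higher in SP without overlap (1.32 to 2.52 against 0.409 to 0.815). GLI1 per PDGFRA overlapped (0.156 to 0.715 against 0.117 to 0.188). The SP ratios rest on a low base, under 1 FPKM in SP replicates 1 and 2, and are uncertain. The part of cell composition in the differences of SMO and the GLI genes was not tested.

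**Figure D3:**
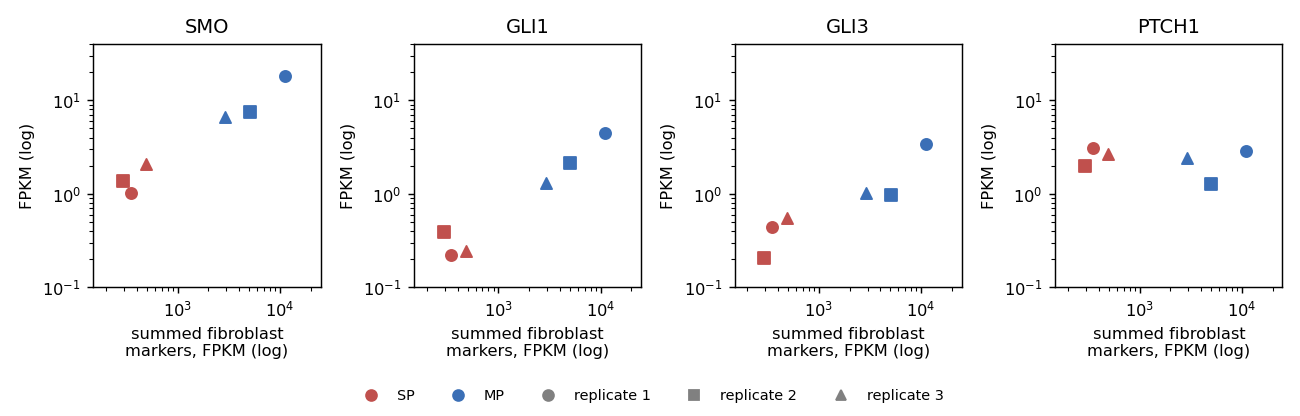
FPKM of SMO, GLI1, GLI3 and PTCH1 against the summed FPKM of 10 stromal fibroblast markers, both on log axes, with 1 point per library coloured by population and shaped by replicate. SMO, GLI1 and GLI3 are high in the 3 MP libraries, where the marker sum is 2902 to 11101 FPKM, while PTCH1 stays between 1.26 and 3.10 FPKM across the range of the sum.

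The other genes of the pathway were taken from 6 lists by role, 69 genes in all, of which 56 were tested. 9 were called higher and 13 lower in SP (4 of the 13 in a direction fixed by the filter), and 34 did not pass. In this fit the shares lie near those of all genes tested, 20.5% higher and 18.7% lower, so they are not a result about the pathway. Their median log2 difference was 0.21, beside 0.01 over all genes tested. With no filter 68 were fitted, and 3 were called higher and 12 lower, where 8.82% of all genes were called higher and 9.95% lower. The share lower was above that of all genes there and the share higher below it. Whether the lists differ from all genes was not tested. Of the genes named below, SHH, DISP1, CDON, LRP2, BOC, GPC3, EVC2, IQCE, GSK3A, CSNK1A1, FOXF1, JAG2, BMP2, SOX17 and NR2F2 were chosen after their values were seen.

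Of 7 genes for ligand lipidation and release 3 were tested and SCUBE2, a secreted carrier that frees lipid-modified ligand, was the 1 that changed. It was at 0.96, 0.769 and 1.72 FPKM in SP and at 22.0, 6.18 and 8.85 FPKM in MP, and fell by 2.48 ± 0.43 on the log2 scale (SE, n = 3 each; limma adjusted p = 0.00594). DISP1, which exports the ligand from the sending cell, was at 9.62, 3.07 and 3.54 FPKM in SP and 2.58, 2.92 and 2.55 FPKM in MP. SP replicate 1 stood out, and the gene did not pass (limma adjusted p = 0.189).

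Of 6 other membrane proteins that bind ligand 4 were tested. Of these, 2 were called lower in SP, 0 higher and 2 did not pass, beside 18.7% lower and 20.5% higher of all genes. The filter fixed the direction of both calls, GAS1 among them. With no filter 2 were called lower and 0 higher, beside 9.95% lower and 8.82% higher of all genes fitted. GAS1, a coreceptor that helps ligand reach Patched, was at 0.887, 0.47 and 0.712 FPKM in SP and at 31.1, 9.36 and 6.02 FPKM in MP (log2 difference −2.98 ± 0.52 SE, limma adjusted p = 0.00577). CDON, a coreceptor, and LRP2 were the 2 that did not pass. Their log2 differences were 0.34 ± 0.37 and 0.19 ± 0.30 (SE; limma adjusted p = 0.481 and 0.638), and their populations overlapped. Of the other coreceptors, BOC missed the filter, with 0.174, 0.209 and 0.612 FPKM in SP against 1.12, 0.559 and 0.717 FPKM in MP, and its populations overlapped. GPC3, a glypican that competes with Patched for ligand, also missed it, with 0, 0.162 and 0.0608 FPKM in SP against 2.26, 5.99 and 0.427 FPKM in MP.

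The regulators of SMO and of the primary cilium, the organelle in which vertebrate Hedgehog signalling takes place, were 15, of which 11 were tested, 2 were called lower in SP, 2 higher and 7 did not pass, beside 18.7% lower and 20.5% higher of all genes. With no filter 2 were called lower and 1 higher, beside 9.95% lower and 8.82% higher of all genes fitted. EVC, which couples active SMO to the GLI machinery, was at 0.186, 1.47 and 1.08 FPKM in SP and at 6.87, 5.43 and 3.06 FPKM in MP (log2 difference −1.69 ± 0.36 SE, limma adjusted p = 0.0108), and its partner EVC2, which missed the filter, was at 0.152 to 0.575 FPKM in SP and 0.681 to 3.12 FPKM in MP. ARRB2, a beta-arrestin, fell by 1.28 ± 0.23 (limma adjusted p = 0.00619). TULP3, an adaptor that carries the inhibitory receptor GPR161 into the cilium, was at 32.4, 22.6 and 22.8 FPKM in SP and at 4.85, 9.76 and 10.3 FPKM in MP, and rose by 1.58 ± 0.32 (SE; limma adjusted p = 0.00887). IQCE, which anchors the EVC complex, rose by 0.71 ± 0.23 (limma adjusted p = 0.0434) but was called in 6 of 24 alternatives.

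All 18 genes for GLI phosphorylation and turnover were tested, 4 were called higher in SP, 1 lower and 13 did not pass, beside 20.5% higher and 18.7% lower of all genes. With no filter 2 were called higher and 1 lower, beside 8.82% higher and 9.95% lower of all genes fitted. Their median log2 difference was 0.33. BTRC, the F-box protein that marks phosphorylated GLI for processing, was at 2.25, 2.74 and 2.55 FPKM in SP and at 6.21, 6.11 and 6.98 FPKM in MP, and fell by 1.08 ± 0.21 on the log2 scale (SE, n = 3 each; limma adjusted p = 0.00767). CUL1, the scaffold of the same ubiquitin ligase, went the other way, rising by 1.23 ± 0.31 from 16.2 to 38.2 FPKM (limma adjusted p = 0.0188). NUMB, which sends GLI1 to degradation, rose by 0.80 ± 0.23 (0.031). The kinases GSK3A and CSNK1A1, which phosphorylate GLI after protein kinase A, rose by 1.06 ± 0.33 and 0.91 ± 0.27 (0.0362 and 0.0314). These calls were the less steady ones: CUL1 was called in 13 of 24 alternatives, NUMB in 9, GSK3A in 9 and CSNK1A1 in 11.

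**Figure D4:**
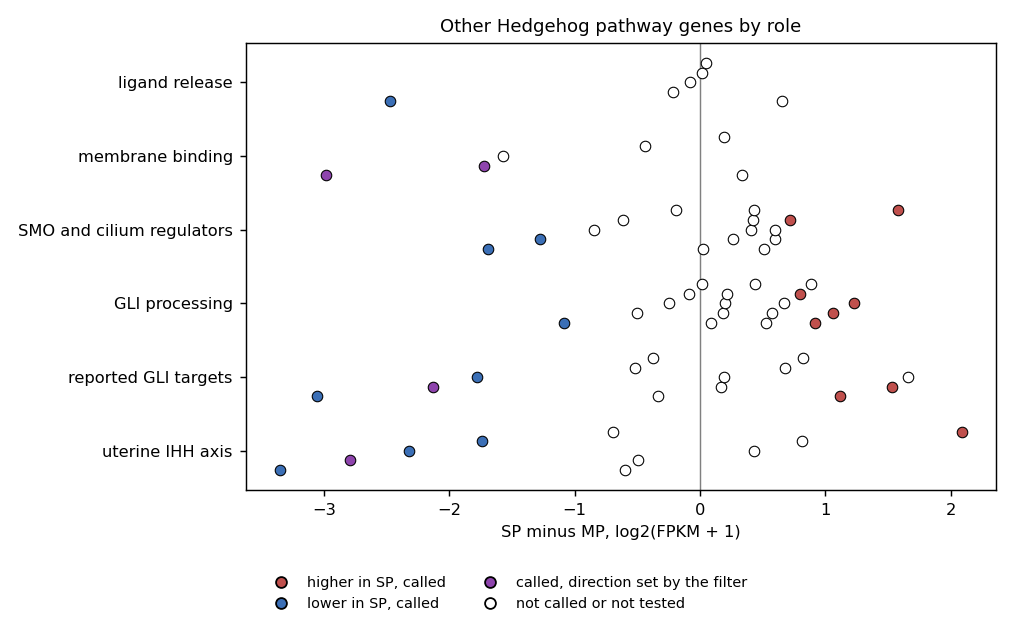
Each point is the SP minus MP difference on log2(FPKM + 1) of 1 of 68 other pathway genes with a value above 0, in rows by role. Filled points passed the test, red higher and blue lower in SP, and purple ones are those whose direction the filter fixed: blue and purple points reach −3.35, while the red ones end at 2.09.

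Of 13 reported target genes of GLI factors 11 were tested, 3 were called lower in SP, 2 higher and 6 did not pass, beside 18.7% lower and 20.5% higher of all genes. With no filter 3 were called lower and 0 higher, beside 9.95% lower and 8.82% higher of all genes fitted. SFRP1, a secreted Wnt antagonist, was at 3.58, 4.13 and 8.06 FPKM in SP and at 58.9, 46.3 and 42.1 FPKM in MP, fell by 3.05 ± 0.31 (SE, n = 3 each; limma adjusted p = 0.00121) and was called in all of 24 alternatives. The cyclin CCND2 fell by 1.78 ± 0.40 (0.0124). The forkhead genes FOXF1 and FOXF2, both mesenchymal Hedgehog targets, went opposite ways. FOXF2 was at 0 to 0.218 FPKM in SP and at 7.36, 2.15 and 2.97 FPKM in MP (log2 difference −2.13 ± 0.36, limma adjusted p = 0.00542, direction fixed by the filter). FOXF1, which endothelial cells of some tissues also express, was at 113, 59.0 and 51.4 FPKM in SP and at 26.5, 12.8 and 38.2 FPKM in MP, and rose by 1.53 ± 0.45 (limma adjusted p = 0.0305, called in 11 of 24 alternatives). JAG2, a Notch ligand, rose by 1.11 ± 0.36 (0.0419, called in 7 of 24).

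Genes that act with IHH in the uterus, around the progesterone receptor, formed the last list. Of 10, 9 were tested, 4 were called lower in SP, 1 higher and 4 did not pass, beside 18.7% lower and 20.5% higher of all genes. With no filter 3 were called lower and 0 higher, beside 9.95% lower and 8.82% higher of all genes fitted. PGR, the progesterone receptor, was at 0.542, 2.01 and 2.00 FPKM in SP and at 18.3, 13.3 and 5.35 FPKM in MP, and fell by 2.33 ± 0.46 (SE, n = 3 each; limma adjusted p = 0.00842). HOXA10, a uterine patterning factor, fell by 3.35 ± 0.57 (0.00563) and BMP2, which acts in decidualization, by 1.74 ± 0.48 (0.025, called in 12 of 24 alternatives). HAND2, a stromal factor that progesterone induces, was at 0.143, 0.0598 and 0.419 FPKM in SP and at 13.0, 2.97 and 9.25 FPKM in MP (log2 difference −2.79 ± 0.44, limma adjusted p = 0.00453, direction fixed by the filter). NR2F2, the orphan receptor that IHH induces in uterine stroma, was at 25.9, 30.8 and 28.4 FPKM in SP and at 71.0, 36.7 and 30.9 FPKM in MP. It was lower in SP in every library, though by little in MP replicate 3, and did not pass (log2 difference −0.60 ± 0.32, limma adjusted p = 0.174). SOX17, an upstream regulator of IHH in uterine epithelium that arterial endothelium also makes, was at 96.3, 78.3 and 67.0 FPKM in SP and at 7.63, 14.6 and 49.2 FPKM in MP, and rose by 2.09 ± 0.58 (limma adjusted p = 0.0256, called in 10 of 24 alternatives).

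The likeness of profiles was measured as the root mean square difference of centred log2(FPKM + 1) over the 6 libraries, over all genes tested. Nearest to GLI1 were GXYLT2, a xylosyltransferase (0.0758), the guidance receptor ROBO2 (0.0826) and the collagen crosslinking enzyme LOX (0.0995). All 3 were lower in SP and highest in MP replicate 1, which follows from their choice by likeness to GLI1 and is no separate result. LOX was at 2.38 to 3.04 FPKM in SP and at 16.4, 8.03 and 6.32 FPKM in MP. Like GLI1, GXYLT2 and ROBO2 had all SP values under 1 FPKM and passed the filter only through MP. Nearest to PTCH1 were FAM120A (0.0621), the splicing factor PRPF3 (0.0754) and ARHGAP39 (0.0821), with FAM120A at 11.6 to 15.6 FPKM in SP and 9.05 to 16.5 FPKM in MP. None of them passed the test, which likewise follows from their choice. HHIP missed the filter and was not compared.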

How the data were processed

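The deposited values are FPKM per gene and library, per the file headers, 1 file for each of 6 libraries. Per the labels' protocols a stranded mRNA kit with conversion for MGI sequencing was used, and per the submitters' processing notes cutadapt 2.5, HISAT2 2.1.0 and the build ARS-UCD1.2. For the FPKM tool, the annotation and the use of strand: not given in the sources used here. Per the file headers the MP columns alone carry the word micro, so a difference in handling and the population cannot be told apart. A row that pools 662 symbols (0.185% to 1.91% of FPKM) was left out. Sums of FPKM were 649758 to 982364.

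Counts are not in the files. The ratio of low values put the depths of SP replicates 2 and 3 and MP replicates 1 to 3 at 1.60, 1.82, 2.32, 3.18 and 1.99 times that of SP replicate 1, so low values are least certain in SP. Across genes, r was 0.95 to 0.967 within SP, 0.925 to 0.937 within MP and 0.736 to 0.88 between them.

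Groups and replicate numbers came from the titles. Tests across genes ran on log2(FPKM + 1), which understates changes of low genes, through lmFit and a trended eBayes (two-sided) of limma 3.58.1 under R 4.3.3. Single genes and ratios had exact two-sided permutation tests (scipy 1.17.1). On simulated data with 200 of 12127 genes changed, log2 changes of 1, 2 and 4 were found by limma in 14%, 76% and 96% of cases, and 6.29% of calls were false. In the data themselves 4759 genes were called, a share the simulation did not match, so these rates need not hold here. Alternatives changed the pseudocount, filter, scaling, variance trend, block and libraries.

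The members, lists and tests were chosen with earlier results of these data known. Named were the 9 members, up to 3 called genes by smallest p from each pathway list, up to 2 from each marker list (the 2 highest by mean where none was called), and the 3 genes nearest to GLI1 and to PTCH1. Coordinates cover the listed locus, introns included, with file starts raised by 1 to count from 1. No sequences are printed. Some genes that the rule names are not reported here, though they stay in the counts of their lists.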

Additional observations from a re-analysis of the deposited data

How the results depend on the processing

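Under the other pseudocount, filter on the mean, scalings, gene exclusions and variance model, SMO and GLI1 were called, PTCH1 and IHH were not, and of the 9 Hedgehog genes 2 were called. With no filter 4 were called, at either pseudocount. The number of genes called in all was 4759, and 22 of the pathway lists. Leaving out 1 library, or both libraries of 1 number, gave 351 to 4455 genes, 0 to 2 Hedgehog genes (none without number 2) and 3 to 18 pathway genes. With no filter and 1 library left out, an alternative chosen after seeing the data, the genes called were 817, 1295 and 1393 without SP replicates 1, 2 and 3. They were 1996, 1812 and 4297 without MP replicates 1, 2 and 3, where all 6 libraries with no filter gave 3906. The Hedgehog genes called there were 0 without SP replicate 1, 0 without SP replicate 2, 0 without SP replicate 3, 4 without MP replicate 1, 2 without MP replicate 2 and 4 without MP replicate 3. Pathway genes were 1, 1, 3, 10, 8 and 19 without SP replicates 1 to 3 and MP replicates 1 to 3, where all 6 libraries with no filter gave 15. Fewer samples were fitted in each of these, but with no filter more genes were called without MP replicate 3 than with all 6 libraries. The cause of these changes was not tested. No fit with the filter could test GLI1 without an MP library.

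Directions turned for genes that passed in none of these fits. DHH, fitted with no filter, was at −0.0039 without SP replicate 1. The log2 difference of PTCH1 was −0.046 without MP replicate 2, with and without the filter (range over left-out libraries −0.046 to 0.35). That of EPCAM was 0.027 after rescaling, 0.79 without SP replicate 1 and 0.87 without MP replicate 2, both with and without the filter, and 0.37 without the libraries numbered 1 (range −1.11 to 0.87). FAM120A was at −0.093 without MP replicate 2 in both fits (range −0.093 to 0.31), as was ARHGAP39 at −0.091, which was at −0.014 without the libraries numbered 2 (range −0.091 to 0.28).

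With the replicate number as a block, 4793 genes were called, and of the Hedgehog genes GLI1, SMO (limma adjusted p = 0.0147) and IHH (0.021, against 0.172 with no replicate block), with IHH lower in SP for each number. The epithelial marker CLDN4 was called lower in that fit too (0.0216, against 0.122). The column names number the preparations alike in both populations, but no label ties a number to an animal, batch or day. Deviations of libraries with the same number correlated at 0.105, 0.533 and −0.0854, so the numbers were not taken to pair the libraries, and not every library correlated best with its own number.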
